A study of Homo sapiens with 38 samples.

Results

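The D-type cyclin genes CCND1, CCND2 and CCND3, the G1 kinase genes CDK4, CDK6 and CDK2, and the CDK inhibitor genes CDKN1A, CDKN1B, CDKN1C and CDKN2B were followed across 14 groups of melanoma cell cultures. They were chosen as a list of G1 cyclin, kinase and inhibitor genes that act at the D cyclin step, with every probe set that names one of them alone. These 10 of 19775 genes named on the array were read by 28 of its 54675 probe sets. A filter on low signal kept 24 of those 28 probe sets, and at least 1 for each of the 10 genes, against 18063 of 19775 genes in all. The cells were A375, a BRAF-mutant human melanoma line, and 16R6-4, a clone derived from A375 that is resistant to the RAF inhibitor GSK2118436 (GSK436 in the labels, also known as dabrafenib). The clone is called resistant and A375 parental from here on, and since 16R6-4 is 1 clone, what sets it apart from A375 holds for that clone. The other agent was GSK1120212 (GSK212 in the labels, trametinib), which inhibits MEK, the kinase below RAF. Both lines were exposed for 24 h to GSK436 at 0.1 or 1 µM, to GSK212 at 10 or 30 nM, to both agents or to DMSO. The lower combination held 10 nM GSK212 with 0.1 µM GSK436, and the higher combination 10 nM GSK212 with 1 µM GSK436. In resistant cells there were 3 arrays for each of the 6 treatments and 2 for DMSO. In parental cells GSK436 at either dose and GSK212 at 30 nM had 2 arrays per group, and GSK212 at 10 nM, both combinations and DMSO had 3 per group. Whether the arrays of one group stem from different cultures is not stated in the labels. Each p-value below therefore measures only the spread between these arrays, which may be technical.

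D-type cyclins are made when growth factor signals, many of them through RAF, MEK and ERK, reach the cell. They bind CDK4 and CDK6, and the complexes phosphorylate the retinoblastoma protein, which releases E2F factors and allows entry into S phase. CDK2, bound to cyclin E or A, completes that step. Inhibitors of the CIP/KIP kind (p21 from CDKN1A, p27 from CDKN1B, p57 from CDKN1C) bind cyclin-CDK complexes broadly. Those of the INK4 kind (p15 from CDKN2B) bind CDK4 and CDK6. In BRAF-mutant melanoma, CCND1 expression depends on ERK activity, and p27 is often seen to accumulate when the pathway is inhibited.

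Promoter sequence was at hand for 6 of the 10 genes (CCND3, CDK4, CDK6, CDKN1A, CDKN1B and CDKN2B), from RefSeq on GRCh38.p14, as 250 bases before and 50 after the annotated start. CCND1, CCND2, CDK2 and CDKN1C are named only. The promoters are shown of a D cyclin that fell with treatment (CCND3), a kinase with little movement (CDK4) and an inhibitor that rose (CDKN1B). Capitals mark matches, on either strand, to GGGCGG (SP1), CACGTG (E-box) and GTAAACA (FOXO).

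CCND3 promoter, chr6:42048639-42048938, strand -: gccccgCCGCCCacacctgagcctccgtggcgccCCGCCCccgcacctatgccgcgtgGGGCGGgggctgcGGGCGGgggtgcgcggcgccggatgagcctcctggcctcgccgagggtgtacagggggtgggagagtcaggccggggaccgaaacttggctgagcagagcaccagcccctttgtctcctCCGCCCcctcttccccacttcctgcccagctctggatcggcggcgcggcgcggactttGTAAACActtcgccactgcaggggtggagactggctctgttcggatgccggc
CDK4 promoter, chr12:57752261-57752560, strand -: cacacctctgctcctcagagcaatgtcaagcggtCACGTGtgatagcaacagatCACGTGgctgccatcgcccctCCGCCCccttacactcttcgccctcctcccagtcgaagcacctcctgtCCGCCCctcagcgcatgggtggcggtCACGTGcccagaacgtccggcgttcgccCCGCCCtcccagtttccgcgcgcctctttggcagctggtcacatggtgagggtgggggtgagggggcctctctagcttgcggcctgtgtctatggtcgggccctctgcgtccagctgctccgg
CDKN1B promoter, chr12:12717118-12717417, strand +: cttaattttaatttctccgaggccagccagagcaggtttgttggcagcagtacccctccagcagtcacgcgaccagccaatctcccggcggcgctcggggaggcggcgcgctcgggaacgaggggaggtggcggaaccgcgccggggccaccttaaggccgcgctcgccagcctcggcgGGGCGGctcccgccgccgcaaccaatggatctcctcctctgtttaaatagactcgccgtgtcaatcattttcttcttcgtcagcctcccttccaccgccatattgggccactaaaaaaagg

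The SP1 letters were in all 6 promoters, against 44.6% of 27305 promoters of the same length. The E-box letters were in those of CDK4, at -216, -196 and -101 from the start, and CDK6, at 31, against 7.4% of promoters. GTAAACA was in that of CCND3 alone, with its first base at -2, against 3.4% of promoters. AP-1 letters (TGANTCA, in 7.8% of promoters), CRE letters (TGACGTCA, 2.0%), ETS letters (CCGGAAG, 10.7%) and E2F letters (TTTCGCGC, TTTGGCGC, TTTCCCGC or TTTGCCGC, 3.3%) were in none of the 6. Both strands were searched, and matches of different motifs did not overlap in these 6 windows. These matches describe the letters in the windows and were not related to binding.

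Some facts of the whole set of arrays bear on the values that follow. The 3'/5' signal ratio of the actin probes, a measure of RNA quality that grows as RNA is degraded, ran from 3.72 to 45.0 and was above 20 on 15 of 38 arrays. It was 37.2 and 37.5 with 0.1 µM GSK436 and 23.3 and 32.6 with 1 µM GSK436 in parental cells, against 4.59 to 12 with DMSO. In resistant cells the ratio was 13.7 to 27.4 with 10 nM GSK212, against 3.95 to 6.98 with DMSO. It was 11.04 to 33.3 with the lower combination in the same cells. With the higher combination in parental cells it was 14.9 to 27.5, also above all DMSO arrays of that line. Drug and ratio thus moved together in all of those comparisons. With the remaining treatments the ratios overlapped those with DMSO. Of the marker genes, the melanocyte factor SOX10 ran from 1.96 to 21.0 on resistant arrays and from 427 to 1414 on parental arrays. MITF, another melanocyte factor, ran from 864 to 1679 on resistant and from 283 to 734 on parental arrays. The pigment genes PMEL, MLANA, TYR and TYRP1 had medians of 7.56 to 17.1 in resistant and 8.78 to 28.5 in parental cells, under the filter level of 34.88. S100B and S100A1 had medians of 2.34 and 6.67 in resistant cells, and of 59.65 and 38.4, above that level, in parental cells. Of the 9 listed melanocyte markers 8 were measured, and DCT was not. Leukocyte markers (4 measured of 6) summed to 22.6 to 177 on resistant and 68.0 to 291 on parental arrays. The 4 measured of 5 endothelial and fibroblast markers summed to 42.3 to 395 on resistant and 51.5 to 354 on parental arrays. Among epithelial markers (4 measured of 5), KRT8 and KRT18 were above the filter level on all arrays and EPCAM and CDH1 had medians under it in both lines. As a check of the drugs, DUSP6, an ERK phosphatase that ERK itself induces, changed by -0.14 ± 0.64 and -0.79 ± 0.64 log2 units with 0.1 and 1 µM GSK436 in resistant cells, neither called. In parental cells it changed by -4.91 ± 0.64 and -4.83 ± 0.64 at the same doses, both called. With the GSK212-containing treatments its log2 changes ran from -6.60 to -4.68 in resistant and from -7.56 to -5.89 in parental cells, all called. SPRY4, a feedback inhibitor of the pathway, changed by -0.32 ± 0.98 and -0.24 ± 0.98 with GSK436 in resistant cells, not called. In parental cells it changed by -3.04 ± 0.98 and -2.80 ± 0.98, both called. SPRY4 values with GSK212 are not given here. Of 8 listed genes of ERK output, with DUSP6 and SPRY4 among them, 6 fell with 10 nM GSK212 in resistant cells (2.78% of all genes called). With each other GSK212-containing treatment 7 fell in those cells (4.32% to 6.54%). In parental cells 7 fell with 30 nM GSK212 (9.97%) and 8 with each other GSK212-containing treatment (10.7% to 17.1%).

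Among the 10 genes, CCND1 fell with all 4 GSK212-containing treatments in both lines, and CCND3 with 3 of the 4 in resistant and all 4 in parental cells. CDKN1B rose with all 4 in resistant and 2 of the 4 in parental cells. These 6 CDKN1B calls were lost with each array centred on its median, and the 4 resistant ones without resistant DMSO replicate 1. GSK436 alone gave calls in parental cells and none in resistant cells. A gene is called here when its Benjamini-Hochberg adjusted p is under 0.05 and its log2 change is at least 1 in size, in a limma fit of all 18063 genes. Against DMSO, resistant cells gave 0 calls of 10 with 0.1 µM GSK436 (background over all genes 0.00554%) and 0 with 1 µM GSK436 (0.0775%). They gave 2 with 10 nM GSK212 (2.78%) and 3 with 30 nM GSK212 (4.32%). They gave 3 with the lower combination (4.86%) and 4 with the higher combination (6.54%). Parental cells gave 6 calls with 0.1 µM GSK436 (18%) and 5 with 1 µM GSK436 (19.6%). They gave 4 calls with each of 10 nM GSK212 (11.8%), 30 nM GSK212 (9.97%), the lower (10.7%) and the higher combination (17.1%). Summed over the 6 treatments, 12 of 60 gene-treatment pairs were called in resistant cells (5 higher and 7 lower), where 3.1% of pairs were called over all genes. In parental cells 27 of 60 were called (9 higher and 18 lower), where 14.5% were called over all genes. In a second fit of all 35888 kept probe sets, the 24 of the 10 genes gave 0 calls in resistant cells with 0.1 µM GSK436 (0.00279% of all probe sets) and 0 with 1 µM GSK436 (0.0474%). They gave 3 with 10 nM GSK212 (1.89%), 5 with 30 nM GSK212 (2.82%), 7 with the lower (3.25%) and 4 with the higher combination (4.59%). In parental cells 9 were called with 0.1 µM GSK436 (14.2%), 9 with 1 µM GSK436 (15.2%) and 9 with 10 nM GSK212 (8.94%). With 30 nM GSK212 there were 7 (7.18%), with the lower combination 8 (8.07%) and with the higher combination 9 (13.8%). In bulk RNA, fewer cells in a phase of the cycle and less RNA per cell cannot be told apart.

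**Figure D1:**
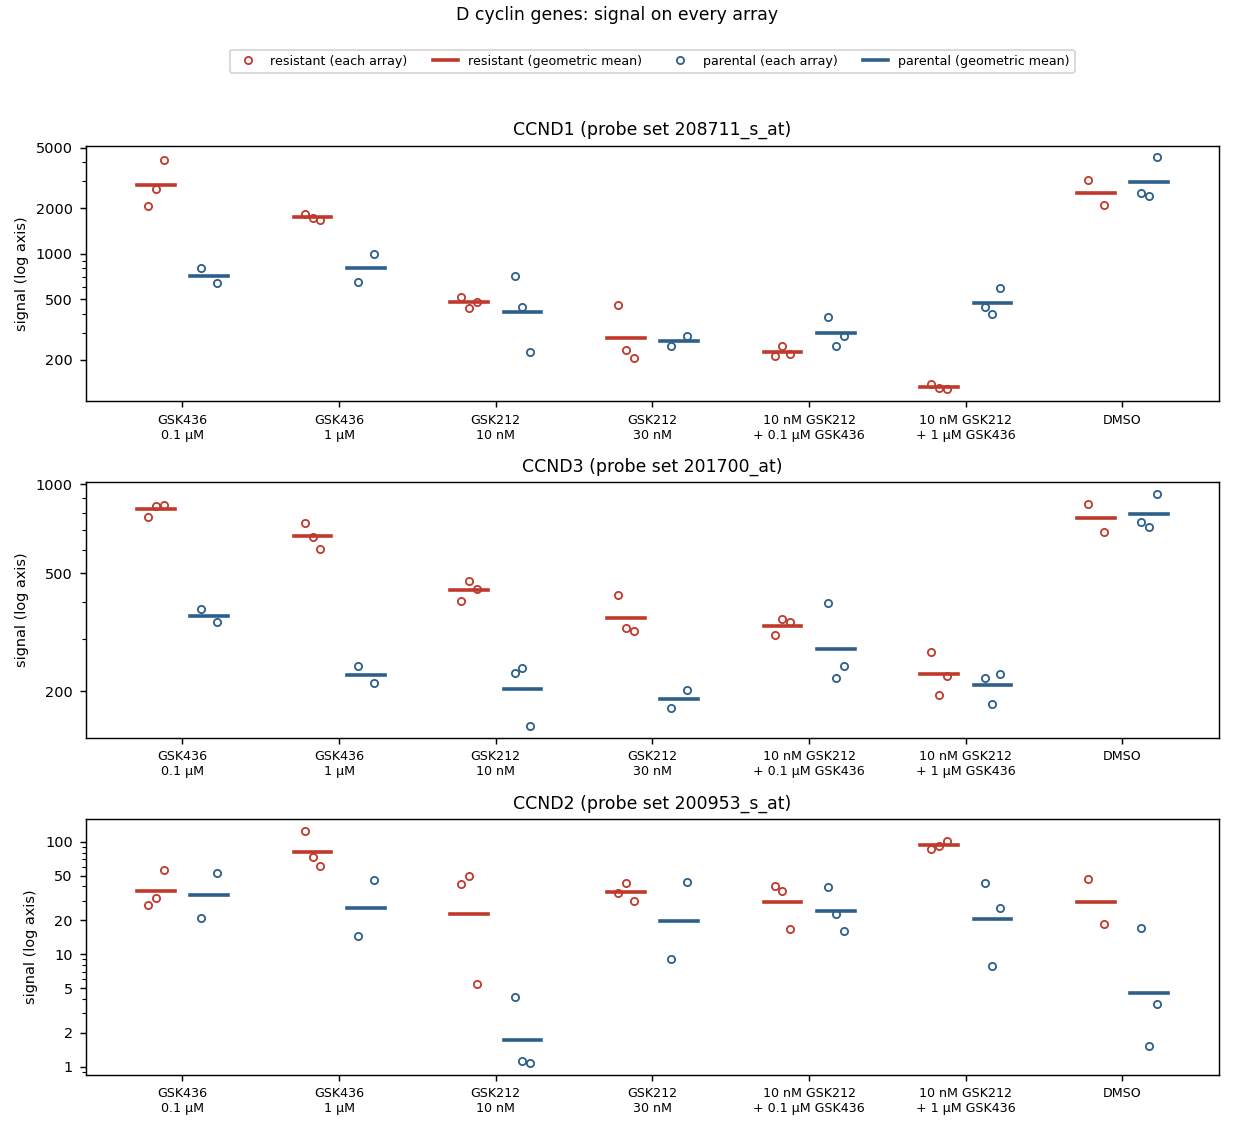
Signal of the 3 D cyclin genes on each of 38 arrays (y axis, linear signal on a log scale) by treatment (x axis), resistant cells in red left of parental cells in blue, with a bar at each group's geometric mean. CCND1 lies between 127 and 137 on the 3 resistant arrays with the higher combination, against 2082 and 3049.5 with DMSO, and CCND2 is near or under the filter level on most arrays.

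CCND1, cyclin D1, lies at chr11:69641156-69654474 (GRCh38.p14) and was read by probe set 208711_s_at. Its signal in resistant cells was 2069, 2654 and 4177 with 0.1 µM GSK436 and 1828, 1712 and 1666 with 1 µM GSK436, against 3049.5 and 2082 with DMSO. These GSK436 arrays overlapped DMSO at 0.1 µM and lay below it at 1 µM. Neither change was called, at 0.17 ± 0.33 (adjusted p = 0.947) and -0.54 ± 0.33 (adjusted p = 1). In the same cells it was 517, 439.7 and 479 with 10 nM GSK212, 455, 232 and 204 with 30 nM GSK212, 210.0, 244 and 217 with the lower combination and 137, 129.8 and 127 with the higher combination. All 12 of these arrays lay below both DMSO arrays. CCND1 fell by 2.39 with 10 nM GSK212, 3.16 with 30 nM GSK212, 3.48 with the lower and 4.23 with the higher combination on the log2 scale (SE 0.33 each, adjusted p from 2.42e-11 to 1.04e-05). With the higher combination, the group averaged 131 ± 5.32, the lowest of the 14 groups, against 2566 ± 684 with DMSO (SD, n = 3 and 2).

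In parental cells CCND1 signal was 799.6 and 637 with 0.1 µM GSK436, 652 and 999.7 with 1 µM GSK436 and 713, 447 and 224 with 10 nM GSK212, against 2522, 2411 and 4334 with DMSO. It was 245 and 285 with 30 nM GSK212, 382, 245 and 286 with the lower combination and 446, 400.5 and 592 with the higher combination. No treated parental array reached a DMSO array. All 6 changes were called, from -1.88 ± 0.33 (adjusted p = 6.26e-05) with 1 µM GSK436 to -3.48 ± 0.33 (adjusted p = 1.43e-09) with 30 nM GSK212. The second CCND1 probe set, 208712_at, had the same sign in all 12 treatment comparisons and was called in 10, as the first was. Its 14 group means correlated with those of the first at r = 0.99 (a description over groups that share the scaling of arrays). Ordered by mean level, parental DMSO (3089 ± 1079.7), resistant 0.1 µM GSK436 (2967 ± 1088) and resistant DMSO (2566 ± 684) came first and overlapped. Then came resistant 1 µM GSK436 (1735 ± 83.7), parental 1 and 0.1 µM GSK436 (826 ± 246 and 719 ± 115), and below these all 8 groups with GSK212. Of the 13 neighbouring pairs in that order, 8 overlapped in their arrays and 5 did not. All 10 CCND1 calls against DMSO held under every alternative setting and with any 1 array left out.

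CCND3, cyclin D3, lies at chr6:41934933-42050035. The promoter window printed above is that of an annotated start inside this span. Whether the transcripts read by the probe sets begin there was not tested. Its signal (201700_at) in resistant cells was 774, 844 and 853 with 0.1 µM GSK436 and 739, 662 and 604 with 1 µM GSK436, against 854 and 689 with DMSO. Both GSK436 groups overlapped DMSO, with changes of 0.10 ± 0.21 and -0.20 ± 0.21. With GSK212 it was 402, 469.7 and 444 with 10 nM GSK212, 422, 328 and 319 with 30 nM GSK212, 309, 349 and 343 with the lower combination and 270.4, 195 and 225 with the higher combination. These arrays all lay below DMSO, and CCND3 fell by 1.11 with 30 nM GSK212, 1.20 with the lower and 1.74 with the higher combination on the log2 scale (SE 0.21 each, adjusted p = 5.87e-04, 1.99e-04 and 3.02e-07). With 10 nM GSK212 the change was -0.81 ± 0.21 (adjusted p = 0.0211), under the size required for a call.

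In parental cells CCND3 signal was 377 and 342 with 0.1 µM GSK436, 243 and 213 with 1 µM GSK436 and 229.9, 239 and 152 with 10 nM GSK212, against 745, 718 and 926 with DMSO. It was 176 and 202 with 30 nM GSK212, 397, 222 and 242 with the lower combination and 222, 182 and 228 with the higher combination. Every treated parental array lay below every DMSO array. CCND3 fell in all 6 treatments, from -1.13 ± 0.21 (adjusted p = 1.67e-04) with 0.1 µM GSK436 to -2.06 ± 0.21 (adjusted p = 6.72e-09) with 30 nM GSK212. A second CCND3 probe set, 1562028_at, was above the filter level on 6 of 38 arrays, shared the sign in 3 of 12 comparisons and was called in 0 of them. Averaging both probe sets ended the CCND3 calls against DMSO in both lines, and turned that for the higher combination in parental cells to 0.29.

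CCND2, cyclin D2, at chr12:4273762-4305353, had a lead probe set (200953_s_at) that passed the filter level on 19 arrays and ran from 1.08 to 125. Its signal was 20.9 and 53.2 with 0.1 µM GSK436 in parental cells, against 17, 1.52 and 3.60 with DMSO, and this change was called at 2.15 ± 0.75 (adjusted p = 0.0321). That call was lost when parental DMSO replicate 2 or 3 or 1 array of 0.1 µM GSK436 was left out, and in 6 of 13 alternative settings. In parental cells with 1 µM GSK436 the change was 1.82 ± 0.75, with 10 nM GSK212 -0.79 ± 0.67 and with 30 nM GSK212 1.52 ± 0.75. With the lower and higher combinations it was 1.73 ± 0.67 and 1.55 ± 0.67, and none of these 5 was called. In resistant cells the highest group was the higher combination, with 85.6, 90.6 and 102, followed by 125, 72.4 and 60.3 with 1 µM GSK436, against 46.8 and 18.4 with DMSO. These 2 groups had all 6 arrays above both DMSO arrays, with changes of 1.55 ± 0.75 (adjusted p = 0.218) and 1.38 ± 0.75 (adjusted p = 1), neither called. The other kept CCND2 probe set, 231259_s_at, was above the filter level on 14 arrays, with the same sign in 6 of 12 comparisons. Probe sets 200951_s_at and 200952_s_at were not kept.

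**Figure D2:**
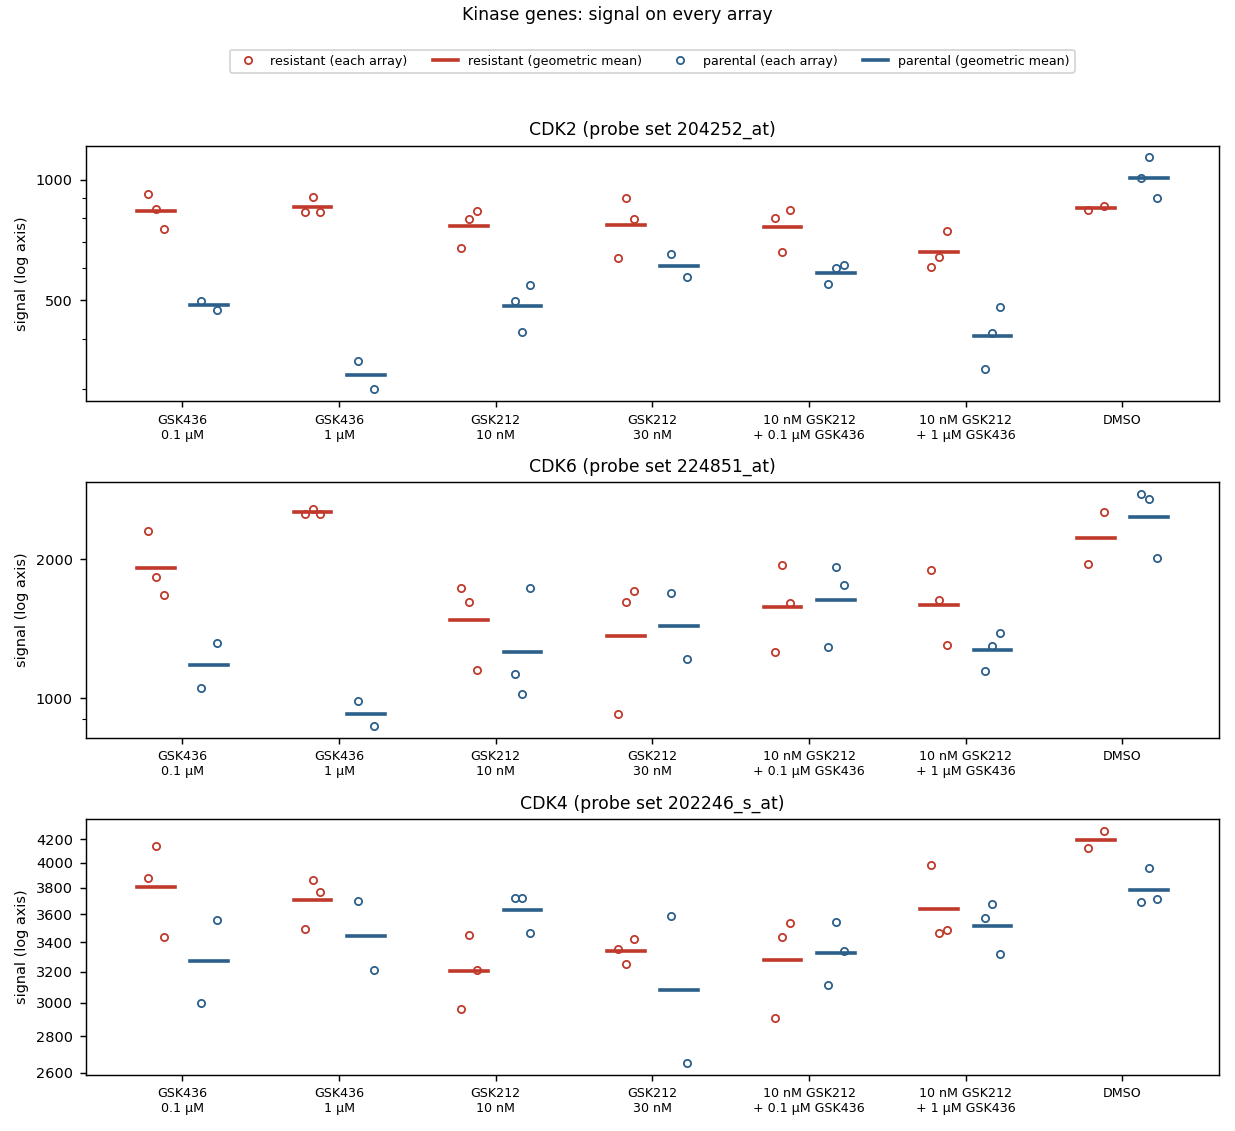
Signal of CDK2, CDK6 and CDK4 on each array (y axis, linear signal on a log scale whose range differs by gene) by treatment (x axis), resistant cells in red left of parental cells in blue, with a bar at each group's geometric mean. Parental CDK2 is 352 and 299 with 1 µM GSK436, against 1012, 1139 and 898 with DMSO, while resistant CDK2 is 829, 906 and 829 with 1 µM GSK436, against 842 and 858 with DMSO.

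CDK4, the main cyclin D partner in many cell types, at chr12:57747727-57752310, had signals from 2651 to 4272 over the 38 arrays (202246_s_at) and no call in any of the 41 comparisons. Its group means ran from 3118 ± 659.8 (SD, n = 2) for parental 30 nM GSK212 to 4197 ± 106 (SD, n = 2) for resistant DMSO, and all 13 neighbouring pairs of groups in that order overlapped. Signal with 1 µM GSK436 was 3490.0, 3863 and 3772 in resistant cells, against 4122 and 4272 with DMSO, and 3696 and 3207 in parental cells, against 3690.2, 3958 and 3714 with DMSO. Changes against DMSO ran from -0.39 (1.96 SE either side, -0.65 to -0.13) with 10 nM GSK212 in resistant cells to -0.06 (-0.29 to 0.17) with 10 nM GSK212 in parental cells.

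CDK6, the other cyclin D partner, at chr7:92604921-92836573, was lower in parental cells with GSK436. Its lead probe set (224851_at) gave 1051 and 1319 with 0.1 µM GSK436 and 985 and 869.8 with 1 µM GSK436, against 2765, 2702 and 2015 with DMSO. All 4 GSK436 arrays lay below the 3 DMSO arrays, and CDK6 fell at both doses, at -1.07 ± 0.25 (adjusted p = 0.00165) and -1.41 ± 0.25 (adjusted p = 5.03e-05). With 10 nM GSK212, 30 nM GSK212 and the higher combination the parental changes were -0.97 ± 0.22 (adjusted p = 0.00117), -0.78 ± 0.25 (adjusted p = 0.0251) and -0.95 ± 0.22 (adjusted p = 0.00125), under the size for a call. The lower combination gave -0.60 ± 0.22. In resistant cells CDK6 signal was 2295, 1833 and 1674 with 0.1 µM GSK436 and 2498, 2571 and 2499 with 1 µM GSK436, against 1953 and 2530.4 with DMSO. None of the 6 resistant changes was called, and they ran from -0.70 ± 0.25 with 30 nM GSK212 to 0.18 ± 0.25 with 1 µM GSK436. Of the other CDK6 probe sets, 224847_at and 224848_at (r = 0.93 and 0.83 with the lead over 14 groups) had the same sign in all 12 comparisons and were called in 3 and 2. Probe set 231198_at, above the filter level on 15 arrays, had the same sign in 6. With the actin ratio in the fit, the parental GSK436 changes were -0.57 at 0.1 µM, no longer called, and -1.01 at 1 µM, still called. With the mean of all kept CDK6 probe sets the change at 1 µM was -0.88, not called.

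CDK2, at chr12:55966830-55972789, was called lower in 4 of 6 parental treatments and in none in resistant cells. Its signal (204252_at) in resistant cells was 922, 846 and 753 with 0.1 µM GSK436, 829, 906 and 829 with 1 µM GSK436 and 676, 799 and 834 with 10 nM GSK212, against 842 and 858 with DMSO. It was 638, 899 and 799 with 30 nM GSK212, 800.5, 659.9 and 839.8 with the lower combination and 606, 640.2 and 745 with the higher combination. Resistant changes lay between -0.36 ± 0.17 and 0.01 ± 0.17. In parental cells it was 498 and 473 with 0.1 µM GSK436, 352 and 299 with 1 µM GSK436 and 499, 415 and 546 with 10 nM GSK212, against 1012, 1139 and 898 with DMSO. It was 653 and 569.7 with 30 nM GSK212, 548, 601 and 611 with the lower combination and 336, 414 and 480.4 with the higher combination. No treated parental array overlapped DMSO. The called changes were -1.05 ± 0.17 (adjusted p = 2.15e-05) with 0.1 µM GSK436 and -1.63 ± 0.17 (adjusted p = 8.53e-09) with 1 µM GSK436. They were -1.06 ± 0.15 (adjusted p = 2.08e-06) with 10 nM GSK212 and -1.31 ± 0.15 (adjusted p = 3.84e-08) with the higher combination. With 30 nM GSK212 (adjusted p = 0.00214) and the lower combination (adjusted p = 2.03e-04) CDK2 fell by less than the size for a call. The smallest of the 6 parental changes was -0.73. Probe set 211804_s_at, with a median signal of 66.4, had the same sign as the lead in 11 of 12 comparisons and no call. Probe set 211803_at was above the filter level on 2 arrays. With the actin ratio in the fit, the parental changes at 0.1 and 1 µM GSK436 were -0.87, under the size for a call, and -1.48. The change with 10 nM GSK212 was -0.98 (adjusted p = 6.91e-07) in that fit, also under the size for a call. Without the arrays of ratio above 20 it was -0.95 (adjusted p = 1.41e-04). With the mean of all kept CDK2 probe sets the change at 1 µM GSK436 was -1.25 and its call was lost.

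**Figure D3:**
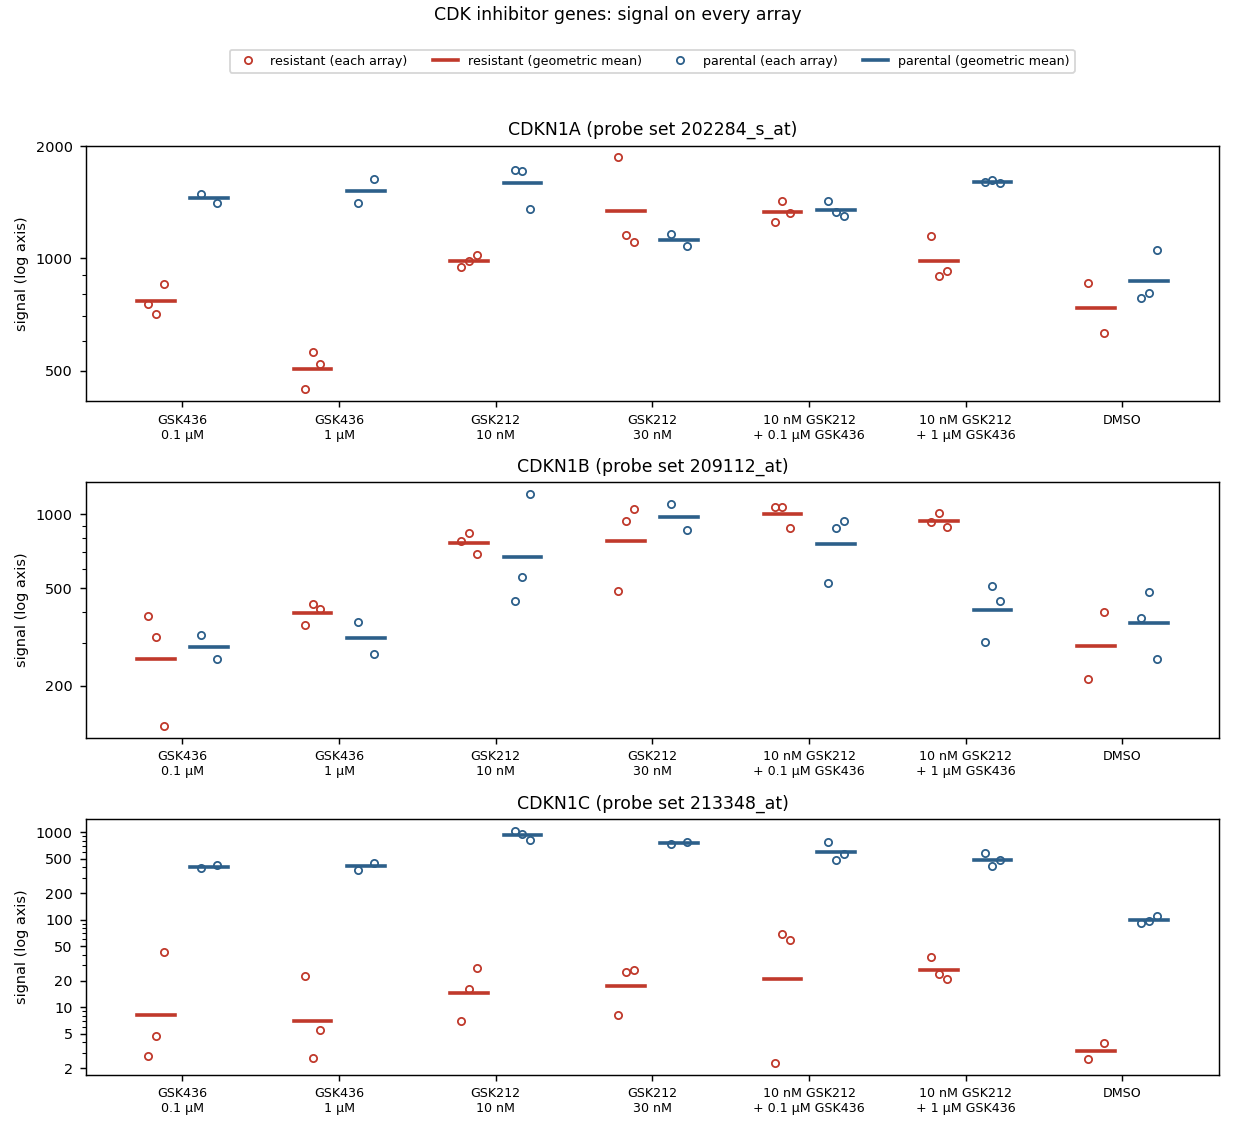
Signal of the CDK inhibitor genes on each array (y axis, linear signal on a log scale whose range differs by gene) by treatment (x axis), resistant cells in red left of parental cells in blue, with a bar at each group's geometric mean. CDKN1C is 2.55 and 3.93 on the resistant DMSO arrays and 92.1, 96.1 and 109 on the parental ones, and every parental treated array is at least 369.8.

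CDKN1C, which encodes p57, at chr11:2883218-2885775, was the inhibitor with the largest changes among the 4 and set the lines apart under every treatment. With DMSO its signal (213348_at) was 2.55 and 3.93 in resistant cells, against 92.1, 96.1 and 109 in parental cells, a difference of -4.08 ± 0.76 (adjusted p = 3.72e-04). It was the only call among the 10 genes in that comparison (background 3.69%). Resistant signals were under the filter level of 34.88 on 16 of 20 arrays, so this fold rests on values near the floor of the array and its size is uncertain. Within treatments the log2 difference, resistant minus parental, ran from -5.71 with 10 nM GSK212 to -4.06 with the higher combination and was called in all 6. In parental cells CDKN1C signal was 389 and 422 with 0.1 µM GSK436, 369.8 and 447 with 1 µM GSK436 and 1037, 961 and 817 with 10 nM GSK212, against 92.1, 96.1 and 109 with DMSO. It was 741 and 768 with 30 nM GSK212, 769.9, 479 and 558 with the lower combination and 580.1, 410.2 and 486 with the higher combination. All parental treated arrays lay above DMSO. CDKN1C rose by 3.20 ± 0.68 (adjusted p = 5.47e-04) with 10 nM GSK212 and 2.90 ± 0.76 (adjusted p = 0.0064) with 30 nM GSK212. It rose by 2.55 ± 0.68 (adjusted p = 0.00619) with the lower and 2.27 ± 0.68 (adjusted p = 0.0116) with the higher combination. The rises with 0.1 and 1 µM GSK436, 2.01 ± 0.76 (adjusted p = 0.0476) and 2.01 ± 0.76 (adjusted p = 0.0446), stood just inside the threshold. The first was kept in 14 of 38 fits that each left out 1 array and in 6 of 14 alternative settings, the second in 33 of 38 and 8 of 14.

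In resistant cells CDKN1C signal was 2.74, 4.72 and 43.2 with 0.1 µM GSK436, 23.0, 2.62 and 5.43 with 1 µM GSK436 and 7.02, 16.1 and 27.8 with 10 nM GSK212, against 2.55 and 3.93 with DMSO. It was 8.15, 25.3 and 26.7 with 30 nM GSK212, 2.30, 69.5 and 58.6 with the lower combination and 37.6, 23.9 and 20.8 with the higher combination. Arrays of 1 group spread widely here, 2 of 3 with the lower combination being above the filter level and 1 having the lowest value of the 38 arrays. The higher combination was called at 2.30 ± 0.76 (adjusted p = 0.0451), and kept that call in 18 of 38 fits that left out 1 array. The other treatments were not called, from 0.80 ± 0.76 to 2.24 ± 0.76. The changes of the 2 lines were not called as different for any treatment. Probe sets 213182_x_at, 216894_x_at and 219534_x_at correlated with the lead at r = 0.92, 0.97 and 0.97 over the 14 groups. They had 8, 2 and 5 calls of 12 in a fit of all probe sets, where the lead had 4. The _x_at sets are ones that can bind other transcripts too.

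CDKN1B, which encodes p27, at chr12:12717368-12722369 with its promoter printed above, rose with all 4 GSK212-containing treatments in resistant and with 2 of them in parental cells. Its signal (209112_at) in resistant cells was 387, 317 and 137 with 0.1 µM GSK436 and 355, 429.6 and 412 with 1 µM GSK436, against 214 and 398 with DMSO. It was 776, 841 and 693 with 10 nM GSK212, 485, 938 and 1049 with 30 nM GSK212, 1071, 1072 and 880.3 with the lower combination and 929, 1015 and 889.8 with the higher combination. All 12 arrays with GSK212 lay above both DMSO arrays. The rises were 1.39 ± 0.37 (adjusted p = 0.023) with 10 nM and 1.41 ± 0.37 (adjusted p = 0.0136) with 30 nM. They were 1.77 ± 0.37 (adjusted p = 0.00143) with the lower and 1.68 ± 0.37 (adjusted p = 0.00175) with the higher combination. None of these 4 calls held without resistant DMSO replicate 1 (214), which leaves 1 DMSO array. That with 10 nM GSK212 was also lost without its replicate 1 or 2, and that with 30 nM without its replicate 2 or 3. The 10 nM call was lost as well with eBayes without trend and without the arrays of actin ratio above 20. GSK436 alone gave -0.19 ± 0.37 and 0.44 ± 0.37. In parental cells it was 323 and 258 with 0.1 µM GSK436, 365 and 269 with 1 µM GSK436 and 445, 557 and 1212 with 10 nM GSK212, against 378, 483 and 257 with DMSO. It was 1104 and 862 with 30 nM GSK212, 527, 879.7 and 938 with the lower combination and 301, 512 and 442 with the higher combination. Called rises in parental cells were 1.43 ± 0.37 (adjusted p = 0.00582) with 30 nM GSK212 and 1.07 ± 0.33 (adjusted p = 0.0199) with the lower combination. Without a call, 10 nM GSK212 gave 0.89 ± 0.33 (adjusted p = 0.0527), the higher combination 0.18 ± 0.33, and GSK436 alone -0.32 ± 0.37 and -0.20 ± 0.37. Centring each array on its median lowered all of these, to 0.93, 0.91, 1.33 and 1.23 in resistant cells. In parental cells it gave 1.01 with 30 nM GSK212 and 0.60 with the lower combination, and the 6 calls were lost. Under that scaling the median change of all genes ran from -0.30 to -0.19 in resistant and from -0.43 to -0.12 in parental cells, against 0.05 to 0.22 and 0.17 to 0.39 with the deposited scaling. CDKN1B stayed above the median gene in each of those comparisons.

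Within most groups, CDKN1B was lowest on the array with the highest actin ratio. With 10 nM GSK212 in parental cells the ratios were 15.4, 32.1 and 5.90 and the CDKN1B signals 445, 557 and 1212, so the array with the lowest ratio had the highest signal. With 30 nM GSK212 in resistant cells the array with a ratio of 45.0 had 485, the lowest of its 3. In 11 of 14 groups the array with the highest ratio had the lowest CDKN1B, in 12 groups the lowest CDK6, in 11 the lowest CDK2 and in 8 the lowest CDK4. Over all 18063 genes, 1.02% were lowest on that array in at least 12 groups, 3.46% in at least 11 and 17.8% in at least 8. For CCND1 the array with the highest ratio was the lowest in 3 groups and the highest in 9, and for CCND3 in 4 and 8. Of all genes, 23.8% were highest on that array in at least 9 groups and 36.9% in at least 8. With the actin ratio as a covariate CDKN1B was 1.19 with 10 nM GSK212 in parental cells, then called, and 0.40 and 0.38 with 0.1 and 1 µM GSK436, opposite in sign to the values above. The part of RNA quality in the changes of CDKN1B, CDK6 and CDK2 was not tested beyond these values.

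**Figure D4:**
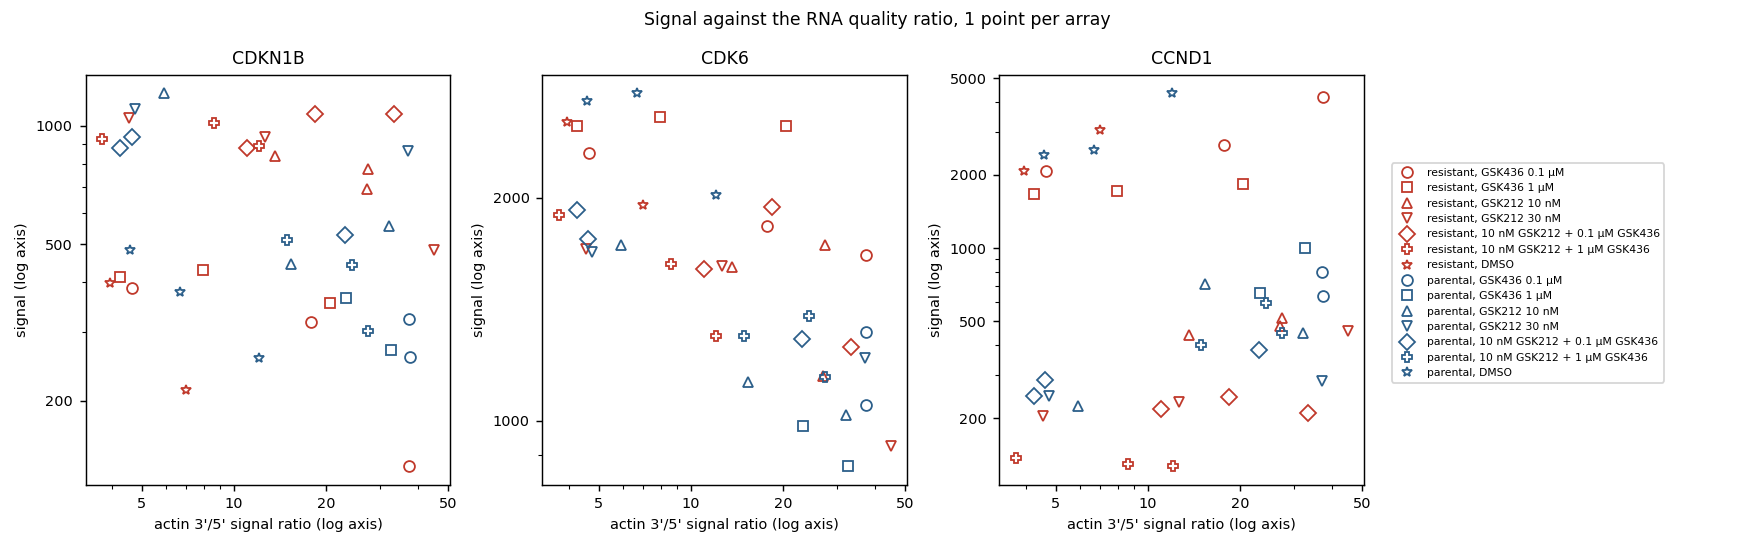
Signal of CDKN1B, CDK6 and CCND1 (y axis, linear signal on a log scale) against the actin 3'/5' ratio (x axis, log scale), 1 point for each of 38 arrays, with line by colour and treatment by symbol. Ratios run from 3.72 to 45.0, and within most groups CDKN1B and CDK6 are lower at the higher ratio while CCND1 is separated by treatment.

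CDKN1A, which encodes p21, at chr6:36676463-36687332, had its 4 highest group means in treated parental cells and its lowest in resistant cells with 1 µM GSK436, while the highest single array was a resistant one with 30 nM GSK212. Its signal (202284_s_at) in resistant cells was 756, 708 and 852 with 0.1 µM GSK436, 445, 559 and 520.5 with 1 µM GSK436 and 946, 984 and 1021 with 10 nM GSK212, against 857 and 632 with DMSO. It was 1867, 1154 and 1105 with 30 nM GSK212, 1249.6, 1423 and 1320.2 with the lower combination and 1147, 896 and 926 with the higher combination. All 3 resistant arrays with 1 µM GSK436 lay below both DMSO arrays, at -0.54 ± 0.18 (adjusted p = 0.846). Changes of 0.86 ± 0.18 (adjusted p = 0.00152) and 0.85 ± 0.18 (adjusted p = 0.00146) with 30 nM GSK212 and the lower combination were under the size for a call. In parental cells it was 1487 and 1411 with 0.1 µM GSK436, 1411 and 1628 with 1 µM GSK436 and 1724, 1713 and 1358 with 10 nM GSK212, against 782, 806 and 1052 with DMSO. It was 1162 and 1078 with 30 nM GSK212, 1423, 1333 and 1296 with the lower combination and 1597, 1622 and 1588 with the higher combination. Every treated parental array lay above DMSO, but no change reached the size for a call. Of the 6, 5 had an adjusted p under 0.05, from 0.63 ± 0.16 (adjusted p = 0.00389) with the lower to 0.88 ± 0.16 (adjusted p = 7.09e-05) with the higher combination, and 30 nM GSK212 gave 0.36 ± 0.18. After centring each array on its median the 6 parental values ran from -0.08 to 0.57, with that for 0.1 µM GSK436 and that for 30 nM GSK212 (-0.06) below 0.

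CDKN2B, which encodes p15, at chr9:22002903-22009313, was at the bottom of the signal range. Its lead probe set (207530_s_at) exceeded the filter level on 2 of 38 arrays, 47.9 on 1 parental array with 30 nM GSK212 and 34.9 on 1 resistant array with 10 nM GSK212, and had a median of 5.26. No comparison was called, all 13 neighbouring pairs of groups overlapped, and its second probe set, 236313_at, was not kept. These signals set no order between groups.

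**Figure D5:**
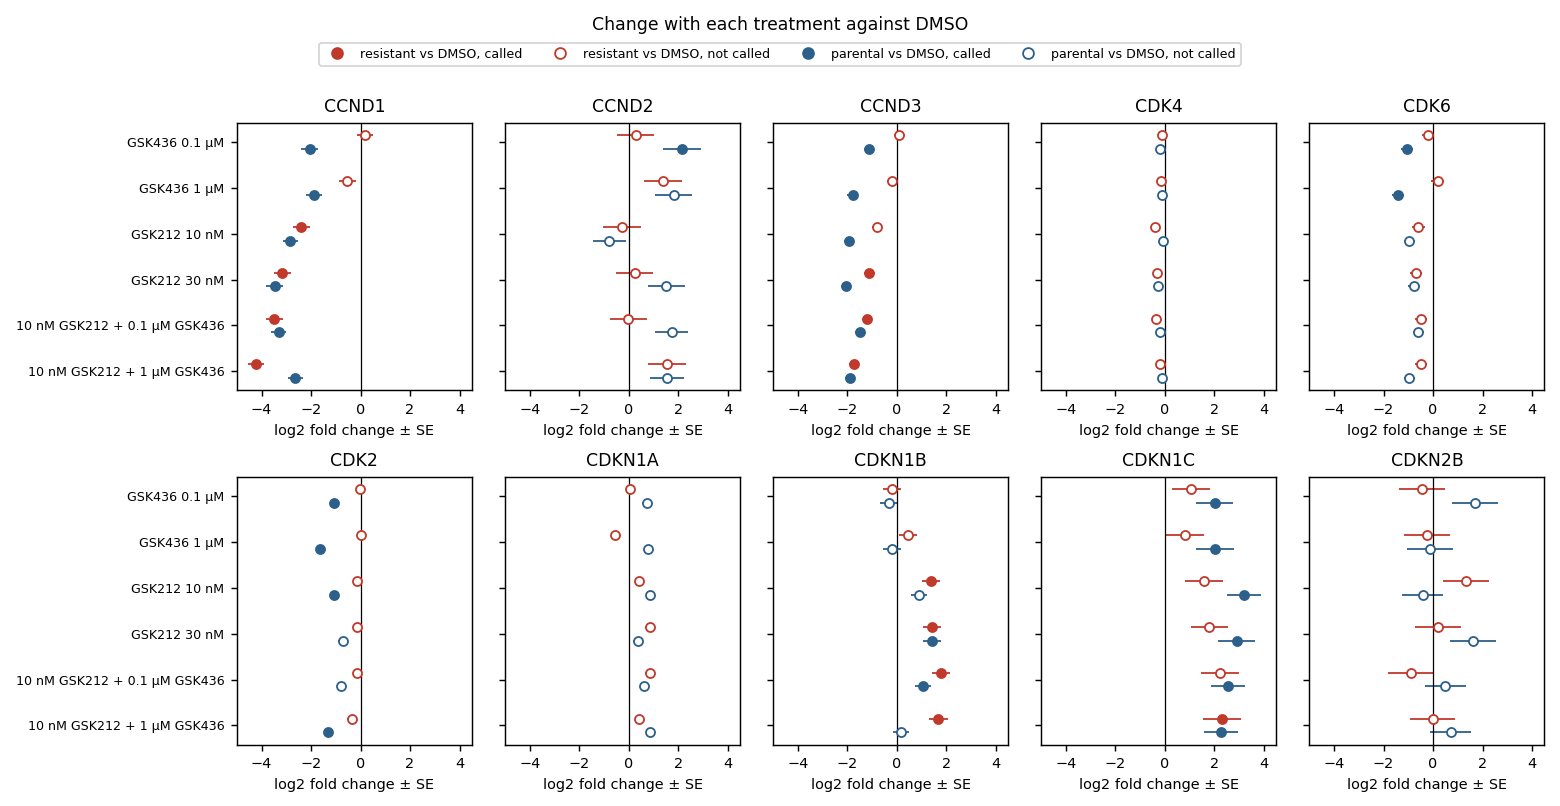
Log2 change against DMSO with its standard error (x axis) for each of 6 treatments (y axis), 1 panel per gene, resistant cells in red above parental cells in blue, with filled points for called changes and open points for others. CCND1 ranges from -4.23 with the higher combination to 0.17 with 0.1 µM GSK436 in resistant cells and from -3.48 to -1.88 in parental cells.

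The lines differed in how 5 of the 10 genes answered the same treatment, tested as the resistant change minus the parental change. With 0.1 µM GSK436 the difference was 2.23 ± 0.47 (adjusted p = 0.00291) for CCND1, 1.23 ± 0.30 (adjusted p = 0.011) for CCND3 and 1.03 ± 0.24 (adjusted p = 0.00702) for CDK2. These are 3 of 10 genes at a background of 4.22%. With 1 µM GSK436 it was 1.58 ± 0.30 (adjusted p = 5.94e-04) for CCND3 and 1.59 ± 0.35 (adjusted p = 0.00227) for CDK6. It was 1.64 ± 0.24 (adjusted p = 2.06e-05) for CDK2 and -1.33 ± 0.25 (adjusted p = 5.66e-04) for CDKN1A, which makes 4 of 10 at a background of 11.1%. With 10 nM GSK212 only CCND3 was called, at 1.14 ± 0.29 (adjusted p = 0.0227) and a background of 1.92%. The CDK2 differences with 10 nM GSK212 (adjusted p = 0.0227) and the higher combination (adjusted p = 0.0242) were under the size for a call. With each array centred on its median their adjusted p was 0.622 and 0.326. No difference was called with 30 nM GSK212 (0.797%), the lower (0.797%) or the higher combination (1.06%). CCND1 differed by 1.34 ± 0.47 (adjusted p = 0.0559) with 1 µM GSK436 and by -1.59 ± 0.45 (adjusted p = 0.0799) with the higher combination, neither called. The GSK436 differences rest on 4 parental arrays with ratios above 20, and with the ratio in the fit that of CDK2 at 0.1 µM was 0.96 (adjusted p = 0.00293), just under the size for a call. In the same fit the CCND1 differences were 1.63 (adjusted p = 0.00157) with 1 µM GSK436 and -1.31 (adjusted p = 0.0328) with the higher combination, both then called, so the 10 genes gave 9 line differences in place of 8. The count over all genes in that fit is not given here. Centring each array took CDKN1A at 1 µM to -0.85 (adjusted p = 0.0755), without a call. Averaging all kept probe sets took CDK2 at 1 µM to 0.80, CDK6 to 0.69 and CCND3 to 0.13, none called.

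Set side by side within a treatment, resistant cells had more CCND1 than parental cells with 0.1 µM GSK436, 2967 ± 1088 against 719 ± 115 (SD, n = 3 and 2), a difference of 1.99 ± 0.33 (adjusted p = 2.36e-05). With 1 µM GSK436 they had 1735 ± 83.7 against 826 ± 246, a difference of 1.10 ± 0.33 (adjusted p = 0.00876). That call was lost with quantile normalization and when parental 1 µM GSK436 replicate 2 was left out. With the higher combination resistant cells had less CCND1, 131 ± 5.32 against 479.7 ± 100.3 (SD, n = 3 each), -1.83 ± 0.30 (adjusted p = 2.87e-05). CCND3 was higher in resistant cells with 0.1 µM GSK436, 1 µM GSK436 and 10 nM GSK212, by 1.19 ± 0.21, 1.54 ± 0.21 and 1.10 ± 0.19. CCND2 was higher with 10 nM GSK212 and the higher combination, by 2.51 ± 0.67 and 1.99 ± 0.67 on low signals. With 1 µM GSK436, CDK6 and CDK2 were higher, by 1.44 ± 0.25 and 1.39 ± 0.17, and CDKN1A lower, at -1.58 ± 0.18. These 3 calls were lost in 1 setting each, CDKN1A with centred arrays (-0.83) and CDK6 and CDK2 with the mean of all kept probe sets (0.73 and 0.45). That mean also ended the CCND3 and CCND2 calls. With the higher combination CDKN1B was higher, by 1.20 ± 0.33, and with the actin ratio in the fit by 0.73 (adjusted p = 0.0317), under the size for a call. With CDKN1C these made 3 calls with 0.1 µM GSK436 (background 19.3%), 6 with 1 µM GSK436 (28.7%) and 3 with 10 nM GSK212 (11.8%). There were 1 with 30 nM GSK212 (5.88%), 1 with the lower (6.46%) and 4 with the higher combination (13.6%).

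Adding GSK212 to GSK436 lowered CCND1 and CCND3 in resistant cells. The lower combination against 0.1 µM GSK436 gave -3.65 ± 0.30 (adjusted p = 7.83e-11) for CCND1, -1.30 ± 0.19 (adjusted p = 1.07e-05) for CCND3 and 1.96 ± 0.33 (adjusted p = 8.99e-05) for CDKN1B. These were 3 calls of 10 at a background of 4.65%. The higher combination against 1 µM GSK436 gave -3.69 ± 0.30 (adjusted p = 4.97e-11), -1.53 ± 0.19 (adjusted p = 4.15e-07) and 1.24 ± 0.33 (adjusted p = 0.0105) for the same genes, at a background of 5.59%. Against 10 nM GSK212, CCND1 was lower with the higher combination, at -1.84 ± 0.30 (adjusted p = 3.12e-04), 137, 129.8 and 127 against 517, 439.7 and 479, the 1 call at a background of 0.554%. Actin ratios of these groups did not overlap, at 3.72 to 12.1 and 13.7 to 27.4. The call was lost without the arrays of ratio above 20, which removes most arrays with 10 nM GSK212. CCND3 was lower there too (adjusted p = 0.00533), under the size for a call. The lower combination gave -1.09 ± 0.30 (adjusted p = 0.63) and no call (0.00554%). In parental cells the lower combination against 0.1 µM GSK436 gave -1.25 ± 0.33 (adjusted p = 0.0485) for CCND1 and 1.38 ± 0.37 (adjusted p = 0.0485) for CDKN1B, at a background of 1.27%. These calls were kept in 10 and 13 of 38 fits that left out 1 array. The other 3 parental comparisons of a combination with a single drug had none (0.00554%, 0.0166% and 0.343%).

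No gene of the 10 was called between doses of a drug or between combinations in either line by the limma fit. Without adjustment 17 of 60 pairs had a p under 0.05 in that fit. The share of all genes at that cut was not counted, so no dose effect is read from it. For calls, the backgrounds were 0.111%, 0% and 0.172% in resistant and 0.249%, 0% and 0.454% in parental cells, for GSK436, GSK212 and the combinations. The CCND1 difference between 30 and 10 nM GSK212 was -0.77 ± 0.30 (-1.36 to -0.18) in resistant and -0.64 ± 0.33 (-1.30 to 0.01) in parental cells, with intervals of 1.96 SE either side. Between 1 and 0.1 µM GSK436 it was -0.71 ± 0.30 (-1.30 to -0.12) in resistant and 0.18 ± 0.37 (-0.54 to 0.90) in parental cells. Between the RAF and the MEK inhibitor, resistant cells with 1 µM GSK436 had more CCND1 than with 10 nM GSK212, at 1.85 ± 0.30 (adjusted p = 8.99e-05), the 1 call of 10 at a background of 2.3%. In parental cells that CCND1 difference was 0.96 ± 0.33 (adjusted p = 0.143), and no gene of the 10 was called (0.814%).

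The 14 group means of the 10 genes were compared by Pearson correlation, as a description over groups that share line and scaling. CCND1 and CCND3 correlated at 0.83, and CDK6 and CDK2 at 0.87. CCND3 correlated with CDK6 at 0.78 and with CDK2 at 0.76. CDKN1B ran against CCND1 (-0.86) and was near 0 with CDK2 (0.08). CDKN1A ran against CDK6 (-0.86) and CCND3 (-0.77) and with CDKN1C (0.73). Among all other genes, those with group means most like CCND1 were AJAP1 (r = 0.99), ETV4 (0.98) and DUSP4 (0.98). Those most like CCND3 were TMEM109 (0.98), EPHA2 (0.98) and NT5E (0.98). SPC25 (0.98), CCNB1 (0.98) and ERCC6L (0.97) were most like CDK2. STEAP1 (0.96), AP1S2 (0.95) and IMP3 (0.95) were most like CDK6. EFR3A (0.98), NIPSNAP3A (0.98) and TMEM14A (0.97) were most like CDKN1B, and ERBB3 (0.99), QPCT (0.99) and ARHGEF40 (0.99) most like CDKN1C. LRRC4C (0.88), ZDHHC23 (0.82) and ELOVL2 (0.81) were most like CCND2.

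Other genes of the G1/S step, a list of 30 of which 28 were measured, were called in 0 to 4 per treatment in resistant and in 10 to 13 per treatment in parental cells. In resistant cells none was called with 0.1 or 1 µM GSK436 (0.00554% and 0.0775% of all genes), 2 were lower with 10 nM GSK212 (2.78%) and 3 were lower with 30 nM GSK212 (4.32%). Each combination gave 1 higher and 3 lower (4.86% of all genes called with the lower and 6.54% with the higher one). In parental cells 1 was higher and 12 lower with 0.1 µM GSK436 (18% of all genes), and 11 lower with 1 µM GSK436 (19.6%). With 10 nM GSK212 2 were higher and 9 lower (11.8%), and with 30 nM GSK212 3 were higher and 7 lower (9.97%). There were 1 higher and 11 lower with the lower (10.7%) and 1 higher and 9 lower with the higher combination (17.1%). The median change of the 28 ran from -0.33 to 0.06 in resistant and from -0.88 to -0.25 in parental cells, against 0.05 to 0.22 and 0.17 to 0.39 for all genes. CCNE2, a cyclin that activates CDK2, changed by -2.16 ± 0.27 with the higher combination in resistant and -2.50 ± 0.24 in parental cells. CDC25A, a phosphatase that activates CDK2, changed by -2.15 ± 0.28 in resistant and -2.70 ± 0.25 in parental cells. CCNE1 fell by 1.20 in resistant cells with the higher combination, where RBL2, a pocket protein that represses E2F targets, rose by 1.21 ± 0.40. MYC, which promotes G1 progression, fell in all 6 parental treatments, by 2.66 with 10 nM GSK212 to 3.49 with the higher combination. CDK1, the mitotic kinase, changed by -2.31 ± 0.40 and CDKN3, a CDK phosphatase, by -2.82 ± 0.53 with 1 µM GSK436 in parental cells. E2F1, an activator of S-phase genes, changed by -2.19 ± 0.67 with 30 nM GSK212 and -1.68 ± 0.60 with the lower combination in parental cells.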

How the data were processed

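RNA of 38 samples (18 parental A375, 20 resistant 16R6-4) was hybridised to one-colour Affymetrix arrays, 1 array per sample. The authors deposited linear signal intensity of 54675 probe sets. The submitters' processing notes name MAS5 without a version. All arrays had the same trimmed mean signal, and detection calls were not used here. Probe sets naming 1 gene (41097) took that gene from the platform annotation; 1801 naming several genes and 11777 naming none were left out. Probe sets above the pooled median of 34.88 on at least 2 arrays were kept (35888), and that with the highest mean stood for each of 18063 genes. Log2 of signal plus 2.8 (the 10th percentile) was fitted with limma 3.58.1 (R 4.3.3, jsonlite 2.0.0 and data.table, version 1.17.8; eBayes with trend), with 14 group means and 24 residual degrees of freedom, in 41 comparisons, each with Benjamini-Hochberg adjustment over all genes. A fold change is on that log2(signal + 2.8) scale, which understates changes of low genes. A second fit used all kept probe sets. The fit was also run on simulated data with independent normal noise, which held no link between RNA quality and treatment. That run therefore says nothing about RNA quality in the calls. The number of arrays limits the precision. Figures and sequences used Python 3.11.15, pandas 2.3.3, numpy 2.4.6 and matplotlib 3.10.9. The text names all 10 genes, up to 4 called genes of the G1/S list per comparison by size, DUSP6 and SPRY4, and for each of the 10 that was called against DMSO the 3 genes with the most alike group means. The genes and lists were chosen with earlier results of these data known. Alternatives varied scaling, centring, pseudocount, filter, probe set choice, variance trend, groups in the fit, a replicate block and each array left out; the actin ratio as a covariate, array weights and leaving out arrays of weight under 0.5 or ratio above 20 were added after seeing the data.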

Additional observations from a re-analysis of the deposited data

Results flagged for a closer look

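In 8 cases the change of a gene with a treatment differed between the lines by a test of that difference (limma, resistant change minus parental change, Benjamini-Hochberg adjusted over all 18063 genes), of 60 gene-treatment pairs, where 3.31% of pairs were called over all genes. CCND1 differed by 2.23 ± 0.47 (adjusted p = 0.00291) with 0.1 µM GSK436, where resistant cells had 2069, 2654 and 4177 and parental cells 799.6 and 637. CCND3 differed by 1.23 ± 0.30 (adjusted p = 0.011) with 0.1 µM GSK436, 1.58 ± 0.30 (adjusted p = 5.94e-04) with 1 µM GSK436 and 1.14 ± 0.29 (adjusted p = 0.0227) with 10 nM GSK212. Its changes against DMSO had an SE of 0.21 in resistant and of 0.19 to 0.21 in parental cells. CDK2 differed by 1.03 ± 0.24 (adjusted p = 0.00702) with 0.1 µM and 1.64 ± 0.24 (adjusted p = 2.06e-05) with 1 µM GSK436, and CDK6 by 1.59 ± 0.35 (adjusted p = 0.00227) with 1 µM GSK436. CDKN1A differed the other way, by -1.33 ± 0.25 (adjusted p = 5.66e-04) with 1 µM GSK436, with 445, 559 and 520.5 in resistant and 1411 and 1628 in parental cells, and centring each array took this to -0.85 (adjusted p = 0.0755), not called. CCND1 with 0.1 µM GSK436 was the only one called in each of its 14 alternative settings. CCND3 with 10 nM GSK212 was called in 9 of 15 and CDK2 with 0.1 µM GSK436 in 9 of 14, and the mean of all kept probe sets took CCND3 with 1 µM GSK436 to 0.13, CDK6 to 0.69 and CDK2 to 0.80, none called. The 4 parental GSK436 arrays had actin ratios of 23.3 to 37.5, and the part of RNA quality in these differences was not tested beyond the fit with that ratio as a covariate.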

How the results depend on the processing

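Of 410 gene-comparison pairs, 76 were called. By kind of comparison, the share called over all genes ran from 0.164% for doses to 14.5% for treatments in parental cells. Of the 76, 27 were called in every alternative setting that could be run and with each array left out. That count was not made for all genes. In sign 1 pair reversed, CCND3 with the higher combination in parental cells (0.29 with the mean of all kept probe sets against -1.90). With that mean the line differences gave 3 calls and resistant against parental within treatments 11, against 8 and 18. Over all genes the within-treatment calls were also fewest with that mean, 12575 against 15482. Without the arrays of weight under 0.5 (parental DMSO replicate 3, parental 10 nM GSK212 replicate 3, parental lower combination replicate 1, resistant 0.1 µM GSK436 replicate 3 and resistant 30 nM GSK212 replicate 1) there were 14 line differences and 3 dose calls, and with array weights 2 dose calls, against 0. The comparison of 1 µM GSK436 with 10 nM GSK212 gave 2 calls with no pseudocount, with the replicate block and with the actin covariate, against 1. The causes were not tested. Leaving out 1 array gave 8 to 13 calls in resistant cells (12 with all arrays), 23 to 29 in parental cells (27), 1 to 1 between lines with DMSO (1), 6 to 10 line differences (8), 7 to 10 for combinations (9), 0 to 0 for doses (0), 17 to 18 between lines within treatments (18), 1 to 4 between the drugs (1, with 4 calls without parental 10 nM GSK212 replicate 1) and 61 to 74 over probe sets (70). Counts over all genes with 1 array left out are not given here, so those ranges are not read as particular to the 10 genes. Over all genes, line differences ran from 1942 (centred arrays) to 9587 (without the low-weight arrays) against 3583, doses from 106 (centred arrays) to 1832 (array weights) against 178, combinations up to 5542 (array weights) against 2247, and the drugs up to 959 (array weights) against 562. Replicate numbers did not pair the samples: deviations of same-numbered samples from their group means correlated with a median r of 0.0095 over 224 pairs and those of other numbers with -0.0039 over 445. The replicate block moved 3 calls below and 2 above the threshold among the 410 pairs, and over all genes moved the lower combination against 0.1 µM GSK436 in parental cells to 456 calls, against 230. CCND2, CDKN2B and CDKN1C in resistant cells lie near or under 34.88, and CCND2 and CDKN2B gave no value with the filter at the 75th percentile.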
